A study of Mus musculus with 2 samples.

Results

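The S-phase transit-amplifying cells of the mouse ileum were taken from 2 single-cell (sc)-RNASeq libraries, 1 of WT and 1 of Tipe0-/- epithelium. The members were chosen by the UMIs of 17 genes. A cell was counted as one when it held no UMI of the stem cell gene Lgr5, at least 1 UMI of 3 or more of the 8 replication genes Dtl, Cdc6, Ccne2, Uhrf1, Mcm4, Msh6, Chaf1b and Zfp367, and a UMI of fewer than 4 of the 8 mitosis genes Cdc20, Ube2c, Ccnb1, Plk1, Aspm, Kif22, Anln and Ska1. This rule took 506 of 5408 cells, 272 of 3402 in the WT library and 234 of 2006 in the Tipe0-/- library. A UMI is a molecular tag that marks 1 captured mRNA molecule, and levels are given as UMIs per 1000000 UMIs of the same cells (CPM). All values of the 17 rule genes, and all comparisons of these cells with the other cells of the same library, describe a choice made on the same counts and carry no test.

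Tipe0 is Tnfaip8, a member of a family of lipid-binding proteins. By their source label both libraries came from ileal epithelium, though the treatment label speaks of enteroids, of mice with a C57BL/6 background aged 8 weeks, wild type or Tnfaip8-/-, uninjured, with the cells of 3 mice of a genotype pooled before sequencing. The labels name no cell type to which the loss of Tnfaip8 was limited. With 1 library a genotype and no label that ties a cell to a mouse, no difference between genotypes could be tested, and the intervals given are 95% intervals for counting error only.

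The WT library held 38127808 UMIs with a median of 7760 per cell, and the Tipe0-/- library 23897126 with a median of 7307.5. Among the S-phase cells the median was 9441.5 UMIs and 2786.5 genes in WT, and 8361 UMIs and 2601 genes in Tipe0-/-. Their UMIs ran from 3264 to 55365 in WT and from 3564 to 86351 in Tipe0-/-. Mitochondrial genes took 6.73% of their UMIs in WT and 9.57% in Tipe0-/-, as against 6.59% and 8.56% in the whole libraries. The libraries shared 9 cell barcodes, of which 1 belonged to an S-phase cell.

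Transit-amplifying cells are the fast-dividing daughters of the Lgr5+ crypt stem cells, which pass through several cell cycles before they leave the crypt as enterocytes or secretory cells. Ahead of S phase, origins of replication are licensed by loading the Mcm helicase with the help of Cdc6 and Cdt1, and cyclin E with Cdk2 then starts replication. The genes for these steps are switched on together at the G1/S transition by E2F transcription factors, whereas the genes of mitosis are switched on later, through promoter elements that include the cell-cycle genes homology region (CHR). Transcript sets of the 2 phases therefore mark where a cell stands in its cycle.

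The promoters of rule genes from each phase are shown because the phases differ in these elements. The sequences are from RefSeq (GRCm38.p6), 100 bases each, read 5′ to 3′ on the strand of the gene. Capitals mark an E2F motif in the first 3 sequences and a CHR motif in the last 3. The windows are Dtl chr1:191575545-191575644 on the minus strand, Cdc6 chr11:98907963-98908062 on the plus strand, Zfp367 chr13:64152374-64152473 on the minus strand, Ube2c chr2:164769829-164769928 on the plus strand, Cdc20 chr4:118437344-118437443 on the minus strand and Kif22 chr7:127042421-127042520 on the minus strand. All end at the base before the start that RefSeq gives, except that of Cdc6, which runs from position -188 to -89 relative to it. For Zfp367 the table lists 2 promoters, chr13:64153150-64153449 and chr13:64152324-64152623, and the window shown lies in the second. By the GENCODE gene extents, the windows of Cdc6 and Zfp367 lie inside the gene, those of Ube2c, Cdc20 and Kif22 reach into it and that of Dtl lies before it.
Dtl: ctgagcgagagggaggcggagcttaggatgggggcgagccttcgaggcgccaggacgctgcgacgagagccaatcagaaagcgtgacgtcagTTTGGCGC
Cdc6: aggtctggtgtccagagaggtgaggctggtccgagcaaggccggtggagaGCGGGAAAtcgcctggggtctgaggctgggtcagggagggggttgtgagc
Zfp367: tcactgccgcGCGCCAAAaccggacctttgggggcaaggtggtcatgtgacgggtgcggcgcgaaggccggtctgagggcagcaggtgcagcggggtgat
Ube2c: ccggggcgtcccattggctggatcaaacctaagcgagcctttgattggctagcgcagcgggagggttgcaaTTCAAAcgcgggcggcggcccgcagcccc
Cdc20: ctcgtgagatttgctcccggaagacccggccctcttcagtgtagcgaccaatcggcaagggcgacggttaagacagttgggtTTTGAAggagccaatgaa
Kif22: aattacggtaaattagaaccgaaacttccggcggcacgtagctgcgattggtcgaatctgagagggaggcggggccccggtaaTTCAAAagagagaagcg

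Searched as TTTCCCGC, TTTGGCGC, TTTCCCGG and TTTGGCGG on both strands of the window from 250 bases before to 50 bases after the start, an E2F motif was present in 4 of the 6 replication genes of the rule with a promoter in the table (Dtl, Cdc6, Msh6 and Zfp367) and in 1 of 7 mitosis genes (Aspm). It was present in 3.79% of the 27025 genes of the table. A CHR motif, searched as TTTGAA and TTCGAA on both strands, was present in 6 of 7 mitosis genes (Cdc20, Ube2c, Plk1, Aspm, Kif22 and Anln), in 1 of 6 replication genes (Zfp367) and in 21.7% of all genes. The pentamer CCAAT was present in 4 of 6 and 6 of 7, compared with 41.1% of all genes. The E2F strings TTTGGCGC and TTTGGCGG and the CHR string TTTGAA share their first 4 letters, but no string of one search contains one of the other. Ccne2, Mcm4 and Ska1 had no entry in the table.

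Each replication gene of the rule was found in a part of the S-phase cells of both libraries. Uhrf1, which reads hemimethylated DNA behind the fork, was found in 76.1% of the WT and 81.2% of the Tipe0-/- S-phase cells. Mcm4, a subunit of the replicative helicase, was found in 71.3% and 74.8%, and Dtl, which directs the destruction of the licensing factor Cdt1, in 59.2% and 59.4%. The zinc finger gene Zfp367 was found in 44.1% and 54.7%, and Chaf1b, a subunit of the histone chaperone CAF-1, in 40.1% and 41.9%. The 3 sparsest were Msh6, a mismatch repair gene (26.8% and 32.5%), Cdc6 (31.3% and 28.2%) and cyclin E2, Ccne2 (30.5% and 31.2%).

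In CPM, Uhrf1 stood at 123 in WT and 141 in Tipe0-/- S-phase cells, Dtl at 72.9 and 76.8, Zfp367 at 44.7 and 61.6, and Msh6 at 26.9 and 36.2. In all other cells of the same libraries Uhrf1 stood at 32.7 and 45.9, Dtl at 15.7 and 23.3, Zfp367 at 10.0 and 19.1, and Msh6 at 7.21 and 10.1. Summed over the 8 genes, the S-phase cells held 475 CPM (451 to 499.5) in the WT and 526 (499 to 554) in the Tipe0-/- library, the mitotic cells 169 and 192, the Lgr5-positive cells 185 and 243, and the remaining cells 47.8 and 64.3. Each of the 4 kinds of cells thus held more of these transcripts in the Tipe0-/- library, and the S-phase cells, in which the rule sets a floor, by the smallest proportion.

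As a measure of background, the tenth of each library with the highest share of enterocyte transcripts was used (340 WT and 201 Tipe0-/- cells, median 5687.5 and 5386 UMIs). Dtl was found in 1.47% and 1.49% of these cells, and Hells, a replication-linked helicase outside the rule, in 0.882% and 2.99%, as against 72.1% and 70.9% of the S-phase cells. After each cell was thinned to 3000 UMIs, Hells was found in 40.8% and 42.3% of the S-phase cells and in 0.588% and 0.995% of the enterocyte-rich cells.

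Just inside the rule, the cells with 3 of the 8 replication genes (130 WT and 106 Tipe0-/-) held 110 and 157 CPM of Pcna, the sliding clamp of the fork, and 183 and 206 CPM of the helicase subunit gene Mcm6. Just outside, the cells with 2 of the 8 (174 and 114) held 98.2 and 120 CPM of Pcna and 118 and 151 CPM of Mcm6. At the limit towards mitosis, the S-phase cells with 3 mitosis genes (58 and 29) held 313 and 312 CPM of Top2a, and the cells excluded with 4 (51 and 29) held 363 and 414. Top2a encodes the topoisomerase that untangles replicated chromosomes and increases from S phase to mitosis. Cells just outside the rule thus held much of the same transcripts as those inside.

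The label was then checked against markers of other cells. All 234 Tipe0-/- S-phase cells and 257 of 272 WT S-phase cells (94.5%) held at least 3 of 8 epithelial markers such as Epcam and Krt8. The other 15 WT cells all held 3 or more markers of T cells, B cells or macrophages. In all, 24 WT S-phase cells (8.82%) and 3 Tipe0-/- S-phase cells (1.28%) held 3 or more such markers, 13 and 3 of T cells, and 11 and 0 of B cells, where 0 of 234 allows a share of up to 1.28% (3 counts of the total). In the whole libraries these were 5.17% and 1.40% of cells. The rule therefore took some cells with lymphocyte transcripts along with the epithelial cells, mainly in WT. Stromal and endothelial markers were at 0 for 8 of 10 genes in WT and 9 of 10 in Tipe0-/-.

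Of the secretory lineages, the Paneth list was the most abundant in the S-phase cells, with 36541 CPM in WT and 30013 in Tipe0-/-, led by the defensin gene Defa24. It took 10% or more of the UMIs in 11 WT and 6 Tipe0-/- S-phase cells, and these held 85.5% and 90.6% of all Paneth UMIs of the S-phase cells. Without the immune and the Paneth-rich cells, 239 WT and 225 Tipe0-/- S-phase cells remained. Goblet transcripts took 10% or more of the UMIs in 2 cells of each library. At least 3 Paneth markers were found in 79.4% of WT and 56.0% of Tipe0-/- S-phase cells, and 3 goblet markers in 61.0% and 54.3%. For enterocyte markers these shares were 41.2% and 47.9%, for tuft markers 8.82% and 4.27%, and for enteroendocrine markers 3.31% and 2.56%. They were taken at full depth and without a background share, and do not assign a lineage. In the median S-phase cell the Paneth list took 0.146% of UMIs in WT and 0.0794% in Tipe0-/-, and the goblet list 0.0659% and 0.0551%. Defa24 was found in 99.6% and 93.2% of the S-phase cells, while 10 cells held 82.1% and 97.2% of its UMIs.

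Tnfaip8 itself was sparse in the S-phase cells, with 42 UMIs in WT, or 13.1 CPM (9.47 to 17.8), and 12 UMIs in Tipe0-/-, or 4.35 CPM (2.25 to 7.60). In the mitotic, Lgr5-positive and remaining cells it stood at 9.74, 10.0 and 9.02 CPM in WT and at 2.16, 2.14 and 2.09 in Tipe0-/-. It was lower in the library labelled Tipe0-/- in each kind of cell but not at 0. Where in the transcript these UMIs lay was not tested. Nnt, a mitochondrial transhydrogenase gene that is partly deleted in the C57BL/6J substrain, stood at 11.9 CPM in WT and 48.9 CPM in Tipe0-/- S-phase cells. The 2 libraries thus also differed in a gene known to vary between C57BL/6 substrains. The part of genetic background in the values below cannot be told apart from that of the knockout.

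The S-phase cells held more of the replication transcripts than all other cells, beyond the rule genes. Over both libraries, 11665 genes had 50 UMIs or more. Of these, 158 (1.35%) were at least 2-fold higher in the S-phase cells in both libraries and 422 (3.62%) at least 2-fold lower. The median log2 ratio over all these genes was 0.20 in WT and 0.09 in Tipe0-/-. None of the lists described next holds a rule gene.

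Among the genes of origin licensing and the helicase, 7 of 22 were at least 2-fold higher in both libraries (Mcm2, Mcm3, Mcm5, Mcm6, Gins1, Gins3 and Cdt1) and none was lower, with a median log2 ratio of 1.20 in WT and 0.92 in Tipe0-/-. Mcm6 stood at 190 and 242 CPM in the S-phase cells and at 31.7 and 44.7 CPM in the remaining cells that were neither S-phase, mitotic nor Lgr5-positive. Mcm5 stood at 109 and 96.8 CPM compared with 16.2 and 18.2. Cdc45, which joins the helicase when an origin fires, stood at 26.3 and 17.8 CPM as against 2.85 and 3.53. The licensing inhibitor geminin, Gmnn, was also more abundant, at 103 and 89.5 CPM compared with 28.4 and 26.5. Over all other cells, the log2 ratios were 1.66 in WT and 0.69 in Tipe0-/- for Cdc45, and 1.04 and 0.81 for Gmnn. Neither gene was thus 2-fold higher in both libraries.

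At the replication fork, 16 of 33 genes were at least 2-fold higher in both libraries, the largest count of higher genes among the lists. They included Pcna, the polymerase subunit genes Pola1, Pole, Pole2 and Pold1, the clamp loader genes Rfc3 and Rfc4, and the fork protection genes Timeless, Tipin and Clspn. Pcna stood at 129 and 167 CPM in the S-phase cells and at 32.7 and 49.5 CPM in the remaining cells. Lig1, which seals Okazaki fragments, stood at 177 and 167 CPM as against 33.8 and 34.6. The median log2 ratio of the list over all other cells was 1.16 in WT and 0.996 in Tipe0-/-.

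Of the 18 genes of nucleotide supply, 4 were at least 2-fold higher in both libraries, among them Rrm2, Dck and Paics. Rrm2, the regulated subunit of ribonucleotide reductase, stood at 79.7 and 65.2 CPM compared with 12.3 and 11.6 in the remaining cells. Dut, which keeps uracil out of DNA, stood at 198 and 212 CPM as against 44.1 and 52.2. Of 32 repair and checkpoint genes, 6 were higher (Ung, Exo1, Rad54l, Fancm, Mms22l and Rmi2). Ung, which removes uracil from DNA, stood at 52.5 and 73.9 CPM compared with 10.1 and 14.3.

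Among 21 genes of chromatin replication, Dnmt1, Hells, Chaf1a and Atad2 were at least 2-fold higher. Dnmt1, the maintenance DNA methyltransferase that works with Uhrf1, stood at 108 and 150 CPM as against 25.9 and 37.5 in the remaining cells. Of 28 replication-dependent histone genes with enough UMIs, none was 2-fold higher and Hist4h4 was lower, with a median log2 ratio of 0.47 in WT and 0.04 in Tipe0-/-. These histone mRNAs lack the poly(A) tail by which the library captures mRNA, and 11 of the 69 listed had no UMI in the S-phase cells. Hist1h2ap stood at 115 and 151 CPM in the S-phase cells, at 25.3 and 38.0 in the remaining cells and at 200.05 and 255 in the mitotic cells, with a log2 ratio over all other cells of 0.29 and 0.10.

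Of 31 G1/S regulators, E2f1, E2f7 and cyclin E1 (Ccne1) were at least 2-fold higher in both libraries, and the cyclin-dependent kinase inhibitor genes Cdkn1a, Cdkn2a and Cdkn2b were lower. Cdkn1a, which encodes p21, stood at 29.7 and 34.8 CPM in the S-phase cells and at 220 and 211 CPM in the remaining cells. The D-type cyclin gene Ccnd1 stood at 354 and 363 CPM as against 162 and 172.

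Outside the rule genes, and with at least 100 CPM in the S-phase cells of both libraries, the 12 genes furthest above the remaining cells were Hells, Mcm6, Mcm7, Lig1, Rrm1, Dut, Hist1h2ap, 2810417H13Rik, Dnmt1, Apex1, Stmn1 and Ifitm3. Apart from the last 2, all have a place in replicating DNA, packing it or repairing it. Stmn1, which regulates microtubules, stood at 585 and 566 CPM compared with 124 and 167, and Ifitm3, an interferon-induced membrane gene, at 934 and 217 compared with 228 and 58.2.

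The genes furthest below the remaining cells were those of the differentiated villus. All 15 enterocyte markers were at least 2-fold lower than in all other cells in both libraries, with a median log2 ratio of -3.65 in WT and -3.11 in Tipe0-/-. The ileal bile acid transporter gene Slc10a2 stood at 5.32 and 5.44 CPM compared with 259 and 370, the brush border peptidase gene Anpep at 25.02 and 14.5 CPM as against 901 and 1106, and Maf, a transcription factor of the villus, at 5.63 and 6.52 CPM compared with 260.0 and 354. Tmigd1, the sulfate transporter gene Slc13a1, the protease gene Mep1b, Pmp22 and Dpep1 made up the rest of the 8 lowest. Across the 11665 genes, Pearson's r between the log2 ratios of the 2 libraries was 0.66, and of the 1339 genes that were 2-fold apart in WT, 87.7% lay in the same direction in Tipe0-/-. Genes are not independent replicates, and these values describe the 2 libraries.

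**Figure D1:**
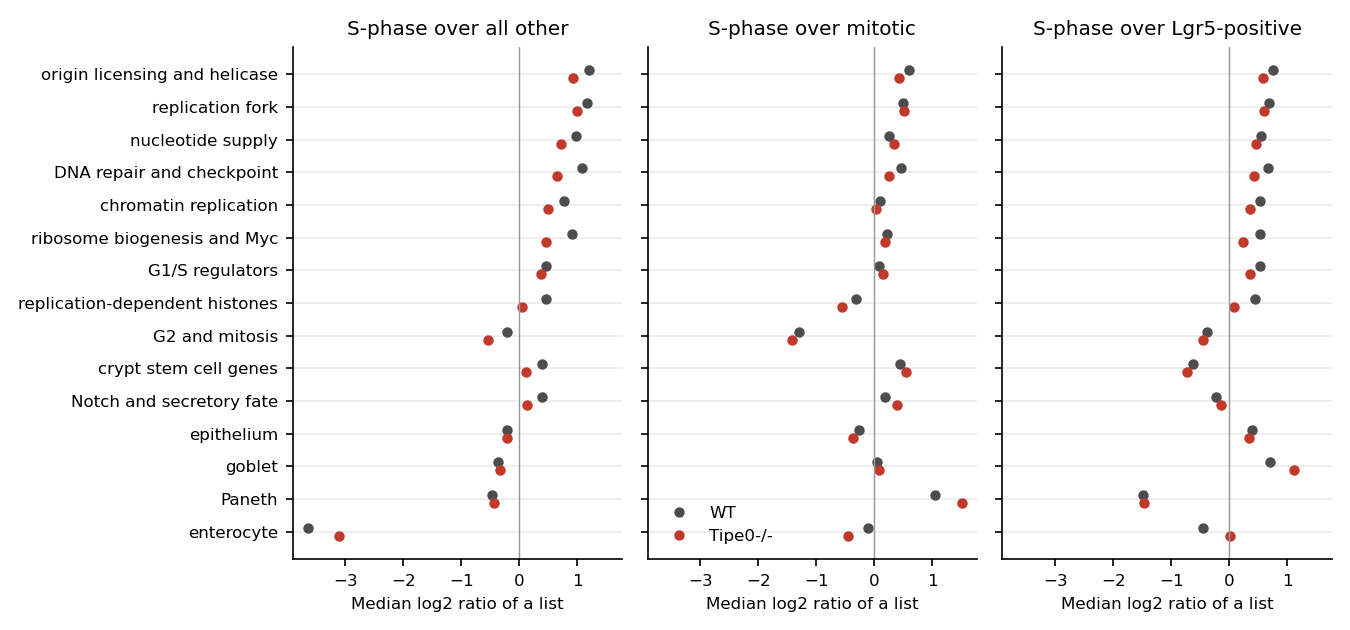
Median log2 ratio of the S-phase cells over all other cells, over the mitotic cells and over the Lgr5-positive cells, for 15 gene lists (rows), in the WT (grey) and Tipe0-/- (red) libraries. The 4 lists of replication and repair at the top lie right of 0 in each panel, the G2 and mitosis list lies furthest left of 0 against mitotic cells, and the enterocyte list furthest left against all other cells.

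The S-phase cells were then set beside the 2 kinds of cells most like them, the 578 WT and 336 Tipe0-/- mitotic cells, which had no Lgr5 UMI and 4 or more of the mitosis genes, and the 573 and 435 Lgr5-positive cells. The mitotic cells were deeper, with a median of 15276 and 16679 UMIs, as were the Lgr5-positive cells with 10757 and 11731. Against mitotic cells, 158 of 11665 genes (1.35%) were at least 2-fold higher in the S-phase cells in both libraries and 127 (1.09%) lower. Of 40 genes of G2 and mitosis, none holding a place in the rule, 28 were lower and none was higher. Summed, this list stood at 1459 and 1306 CPM in the S-phase cells, 3342 and 3217 CPM in the mitotic cells and 582 and 623 CPM in the remaining cells. The S-phase cells thus lay between the mitotic and the remaining cells in G2 and mitosis transcripts.

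Mki67, the proliferation marker Ki-67, stood at 58.5 and 64.1 CPM in the S-phase cells, 109 and 126 in the mitotic cells, 62.0 and 71.6 in the Lgr5-positive cells and 21.5 and 31.2 in the remaining cells. The replication lists differed less from mitotic cells than from the rest. For origin licensing the median log2 ratio over mitotic cells was 0.60 in WT and 0.43 in Tipe0-/-, and 1 gene of each of the licensing, fork, nucleotide and repair lists was 2-fold higher (Cdt1, Tipin, Paics and Ung). The mitotic cells met the replication part of the rule in 30.4% of cases in WT and 39.9% in Tipe0-/-, so part of them held both sets of transcripts.

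Against Lgr5-positive cells, 205 genes (1.76%) were at least 2-fold higher in the S-phase cells in both libraries and 147 (1.26%) lower. Of 21 other crypt stem cell genes, 4 were lower (Olfm4, Gkn3, Tnfrsf19 and Ephb3) and none was higher. Olfm4, a marker of small intestinal stem cells, stood at 4.69 and 5.07 CPM in the S-phase cells and at 19.7 and 14.4 in the Lgr5-positive cells, and the stem cell transcription factor gene Ascl2 at 15.6 and 18.5 as against 29.8 and 39.6. Slc12a2 and Sox9, which mark the wider crypt, stood at 349 and 410 CPM and at 119 and 135 CPM in the S-phase cells, above the 109 and 187 and the 47.1 and 67.6 of the remaining cells. The Paneth list was lower for 9 of 10 genes, with 119692 and 79355 CPM in the Lgr5-positive cells.

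The S-phase cells varied among themselves in the number of mitosis genes found. No mitosis gene was found in 100 of 272 (36.8%) in WT and 108 of 234 (46.2%) in Tipe0-/-, and 3 were found in 58 (21.3%) and 29 (12.4%). From the cells with 0 to those with 1, 2 and 3 mitosis genes, the summed G2 and mitosis list went from 899 to 1026, 1736 and 1911 CPM in WT and from 742 to 1185, 1674 and 2088 CPM in Tipe0-/-. Top2a went from 137 to 225, 272 and 313 CPM in WT and from 154 to 234, 285 and 312 in Tipe0-/-. The summed rule replication genes went from 651 to 503, 427 and 357 CPM in WT and from 614 to 568, 439 and 401 in Tipe0-/-. The rule asks for at least 3 of these genes in each cell, which sets a higher CPM floor in shallower cells. Their order along this series therefore carries no test. Pcna went from 159 to 95.7 CPM in WT between the ends of this series and from 200.1 to 138 in Tipe0-/-.

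Between the ends of the same series, the origin licensing list fell from 1181 to 974 CPM in WT. In Tipe0-/- it was nearly level, at 1128 and 1088 CPM. Depth moved along with the series, since the median UMIs went from 5992 to 15852 in WT and from 5215.5 to 18016 in Tipe0-/-. The number of genes found in a cell depends on its depth, and the part of depth in this order was not tested.

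**Figure D2:**
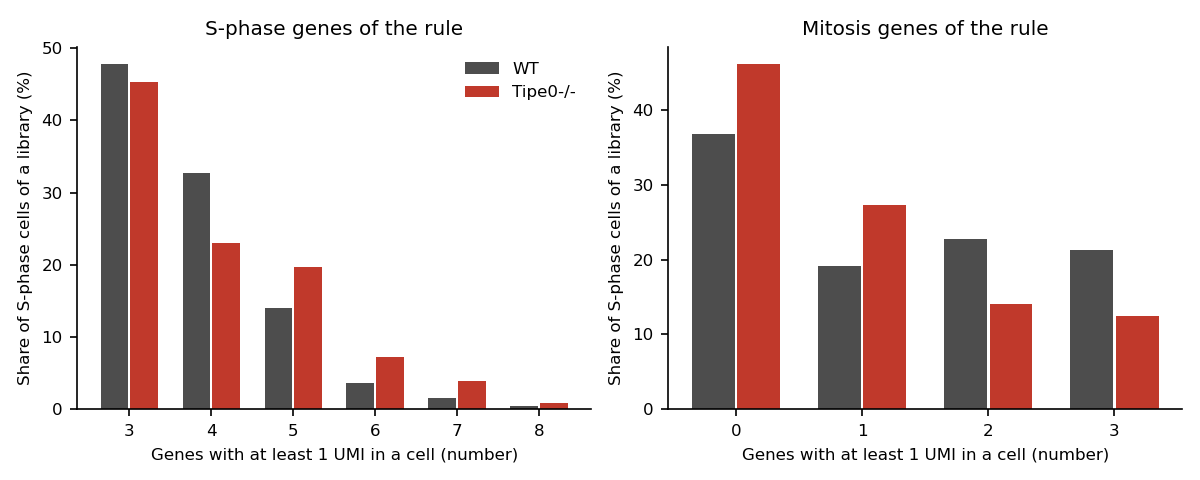
Share of the S-phase cells of the WT (grey) and Tipe0-/- (red) libraries in % by the number of replication genes (left) and mitosis genes (right) of the rule found with at least 1 UMI. Cells with 3 replication genes were the largest set in both (47.8% and 45.3%), and cells without a mitosis gene made up 36.8% of the WT and 46.2% of the Tipe0-/- S-phase cells.

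The first question between genotypes was the share of S-phase cells. They made up 8.00% of the WT library (7.11 to 8.96) and 11.7% of the Tipe0-/- library (10.3 to 13.2), a difference of 3.67 percentage points (2.03 to 5.38). Mitotic cells made up 16.99% and 16.7%, a difference of -0.24 points (-2.28 to 1.85). Lgr5-positive cells made up 16.8% and 21.7%, and the remaining cells 58.2% and 49.9%. Within the S-phase and mitotic cells together, S-phase cells were 32.0% in WT (28.9 to 35.3) and 41.1% in Tipe0-/- (37.0 to 45.2). Such shares do not separate a longer S phase from more frequent entry into it.

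Because the rule counts genes found, each cell was also thinned to 3000 UMIs, a depth that all cells had. The share was then 2.50% (2.0005 to 3.08) in WT and 4.34% (3.49 to 5.32) in Tipe0-/-, a difference of 1.84 points (0.84 to 2.93), with 85 and 87 cells. Mitotic cells were 2.70% and 3.54% after thinning. Among S-phase and mitotic cells the S-phase share was then 48.0% and 55.1%, a difference of 7.04 points whose interval of -3.65 to 17.5 includes 0. The S-phase share of all cells was thus higher in Tipe0-/- at equal depth too, but the S-phase share of dividing cells was not told apart from no difference at that depth.

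The same replication part of the rule was met by 18.3% of the Lgr5-positive cells in WT (15.2 to 21.7) and 27.8% in Tipe0-/- (23.7 to 32.3). After thinning, with 2 of 8 replication genes asked for, the shares were 19.6% and 23.4%, a difference of 3.73 points (-3.57 to 11.3). Without the cells that held 3 or more immune markers, the difference in the share of S-phase cells was 3.99 points, and without the Paneth-rich cells 3.76. Mice of a genotype were pooled, so the spread between animals could not be seen in any of these shares.

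**Figure D3:**
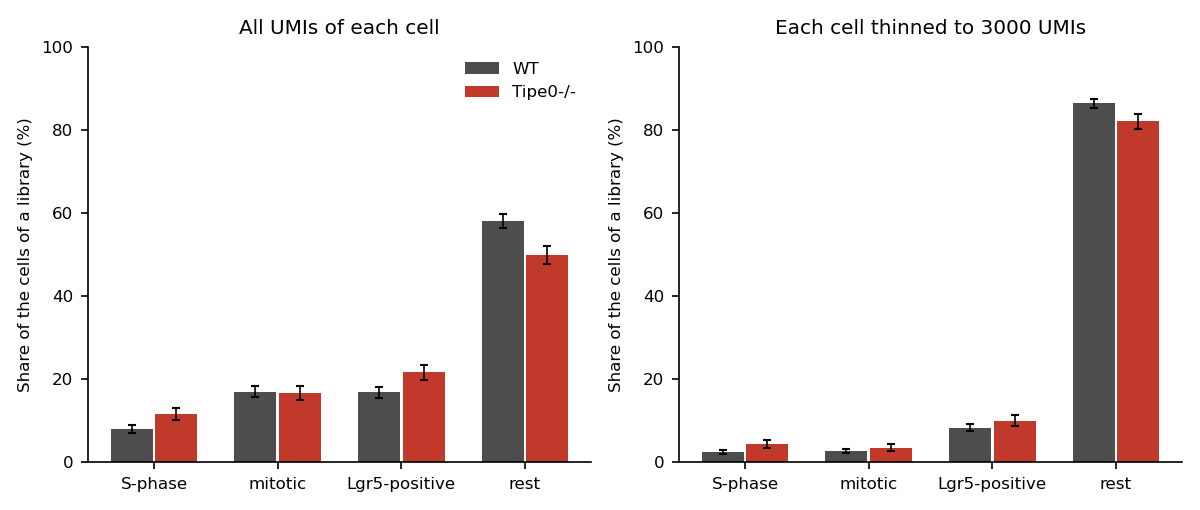
Share of the cells of each library in % that were S-phase, mitotic, Lgr5-positive or none of these (rest), in WT (grey) and Tipe0-/- (red), counted on all UMIs (left) and after thinning each cell to 3000 UMIs (right). Bars start at 0 and lines are exact 95% intervals for counting error. S-phase cells were 8.00% and 11.7% on the left and 2.50% and 4.34% on the right.

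The second question was whether the S-phase cells of the 2 genotypes differed in their genes. Of 7963 genes with at least 50 UMIs in the S-phase cells, 480 (6.03%) were at least 1.5-fold higher in Tipe0-/- and 299 (3.75%) at least 1.5-fold lower. The median log2 ratio was 0.05, and after centring on it the counts were 378 and 375. The replication lists lay near this median. For origin licensing it was -0.04 over 18 genes, of which Orc5 was past 1.5-fold with an interval that included 0 (-0.0056 to 1.48). For the replication fork it was 0.12 over 33 genes, of which Atad5, an unloader of Pcna, was past 1.5-fold (0.70, 0.13 to 1.30). Summed, licensing stood at 1098 CPM (1062 to 1135) in the WT and 1119.7 (1081 to 1159.9) in the Tipe0-/- library, and the fork list at 1589 (1545 to 1633) and 1714 (1665 to 1764).

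Single replication genes differed more than the sums. The log2 ratio of Tipe0-/- over WT was 0.37 for Pcna (0.18 to 0.57), 0.35 for Mcm6 (0.19 to 0.51), 0.47 for Dnmt1 (0.27 to 0.68) and 0.49 for Ung (0.19 to 0.80). In all cells other than the S-phase cells, the ratio was 0.60 for Pcna, 0.60 for Mcm6 and 0.57 for Dnmt1. Pcna, Mcm6 and Dnmt1 were thus higher in Tipe0-/- outside the S-phase cells too. Paics, an enzyme of purine synthesis, stood at 49.4 and 75.7 CPM (0.62, 0.31 to 0.92). In the other direction, Rad51ap1, a factor of homologous recombination, stood at 25.3 and 15.9 CPM (-0.66, -1.23 to -0.12) and Cdc45 at 26.3 and 17.8 (-0.56, -1.10 to -0.04). Without the immune cells Rad51ap1 had a ratio of -0.55, not past 1.5-fold, with an interval of -1.14 to 0.0039 that included 0. The intervals of Lig1, Rrm1, Dut and Hells included 0, with log2 ratios of -0.09, -0.02, 0.10 and 0.11. The rule gene Zfp367 had a log2 ratio of 0.46. The ratios of the rule genes describe the choice of the members and carry no test. Where the members were chosen after thinning, Pcna stood at -0.030 and Zfp367 at -0.13. Bounds that exclude 0 here say that the 2 libraries differed beyond counting error, not that the genotypes did.

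Of 25 repair and checkpoint genes, Brca2 was higher and Bard1 and Rad51ap1 were lower, with a median of 0.03. Of 18 genes of nucleotide supply, Paics and Ctps were higher, with a median of 0.04. The counts of every list stand beside the 6.03% of all genes that were higher and the 3.75% that were lower.

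Of 27 G1/S regulators, 3 were at least 1.5-fold higher (Cdk2, Cdkn1b and Cdkn2c) and cyclin D3, Ccnd3, lower. Ccnd3 had a log2 ratio of -0.60, but of -0.34 (-0.87 to 0.18) without the immune cells and -0.23 (-0.77 to 0.30) without the immune and the Paneth-rich cells, so that its interval then included 0. Cdk2, the kinase that cyclin E activates, stood at 19.4 and 39.1 CPM (1.01, 0.55 to 1.49). Ccnd2 stood at 395 and 503 CPM (0.35, 0.24 to 0.46), whereas Ccnd1 stood at 354 and 363 (0.03, -0.09 to 0.16). Of 37 genes of G2 and mitosis, Ccnf was higher and 5 were lower (Cdc25b, Cenpe, Cenpa, Ccnb2 and Hmmr), with a median of -0.14, or 0.076 where the members were chosen after thinning. The interval of Ccnf (-0.089 to 1.41) included 0, as did that of Cdc25b without the immune cells (-1.62 to 0.066). The Tipe0-/- S-phase cells were also shallower and held fewer mitosis genes of the rule, and the part of depth and of the rule in this list was not tested.

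Genes that act in Wnt, PI3K/Akt and Notch signaling were next, as lists. The median log2 ratio was 0.20 for 16 crypt stem cell genes, with the bone morphogenetic protein co-receptor gene Rgmb higher, and 0.20 for 14 Wnt/beta-catenin targets, with Myc higher. Myc stood at 37.2 and 58.0 CPM (0.64, 0.29 to 0.99), while the list of 24 genes of ribosome biogenesis and Myc, which counts Myc itself, had a median of 0.01. Of 26 PI3K/Akt components, Tsc2 and Rictor were higher and Phlpp2, a phosphatase of Akt, lower, with a median of 0.13. Of all genes, 6.03% were higher and 3.75% lower, and the counts of these lists lay near those shares. With 4 of 8 replication genes asked for, the median was -0.0042 for PI3K/Akt and 0.051 for the stem cell genes. Pik3r1, the regulatory subunit of PI3K, stood at 83.8 and 122 CPM (0.55, 0.31 to 0.78). The 10 genes of Notch signaling and secretory fate had a median of 0.28, and their sums of 412 and 498 CPM a log2 ratio of 0.27 (0.16 to 0.38). Their median was -0.031 under the same stricter rule. The Notch target gene Hes1, which represses the secretory fate, stood at 68.8 and 122 CPM (0.83, 0.58 to 1.08), and another target, Nrarp, at 39.4 and 56.9 (0.53, 0.18 to 0.88). Hes1 was found in 50.4% of WT and 63.2% of Tipe0-/- S-phase cells, 20.2% and 35.0% after thinning, compared with 1.18% and 3.48% of the thinned enterocyte-rich cells. Each other kind of cell also held more of it in Tipe0-/-. Hes1 stood at 65.3 and 113 CPM in the mitotic, 74.6 and 136 in the Lgr5-positive and 30.9 and 73.1 in the remaining cells. After thinning it was found in 19.2% and 30.1% of the mitotic and 25.8% and 38.9% of the Lgr5-positive cells.

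Secretory fate genes were then counted. At least 2 of the 6 secretory fate genes Atoh1, Dll1, Dll4, Spdef, Gfi1 and Neurog3 were found in 15.8% of the WT (11.7 to 20.7) and 20.5% of the Tipe0-/- S-phase cells (15.5 to 26.3), and after thinning in 2.57% (1.04 to 5.23) and 3.85% (1.77 to 7.18). The same was true of 1.76% and 2.99% of the enterocyte-rich cells, and of 0.498% of the Tipe0-/- ones after thinning, where 0 of 340 in WT allows a share of up to 0.882% (3 counts of the total). The shares in the mitotic cells were 23.0% and 26.5%, in the Lgr5-positive cells 19.4% and 25.7% and in the remaining cells 10.3% and 12.9%, and after thinning 3.11% and 2.38%, 1.92% and 3.45%, and 3.69% and 5.59%. The intervals of the 2 genotypes overlapped in the S-phase cells. After thinning, both also overlapped the exact intervals of the enterocyte-rich cells (up to 1.08 in WT, 0.013 to 2.74 in Tipe0-/-). In WT this held for the exact interval only, since the limit of 0.882% by 3 counts lies below the S-phase interval. Hes1 and these genes were not compared cell by cell.

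Of 21 listed genes of antigen presentation and interferon response, 17 had enough UMIs. Of these, 15 were at least 1.5-fold lower in the Tipe0-/- S-phase cells and none was higher, as against 3.75% of all genes. The median log2 ratio was -1.32. Summed, the list stood at 6202 CPM (6116 to 6289) in the WT and 3019.95 (2955 to 3085) in the Tipe0-/- library. Cd74, the invariant chain of MHC class II and the most abundant of the list, stood at 1593 CPM in WT and 637 in Tipe0-/-, and was found in 98.2% and 94.0% of cells. The class II genes H2-Ab1 and H2-Aa stood at 493 and 172 CPM and at 306 and 98.2 CPM, with log2 ratios of -1.52 (-1.67 to -1.37) and -1.64 (-1.84 to -1.45). The class I gene H2-K1 stood at 560 and 360 CPM (-0.64), B2m at 1271 and 896 (-0.50), and the interferon-stimulated gene Isg15 at 34.7 and 5.44 (-2.63, -3.56 to -1.89). B2m and Irf1 were the 2 that were not past 1.5-fold, and both ratios were below 0.

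Immune cells carry class II transcripts, and more of the WT S-phase cells held 3 or more immune markers. Without these cells, the log2 ratio was -1.33 for Cd74 (-1.41 to -1.25), -1.51 for H2-Ab1 and -1.62 for H2-Aa. With them it was -1.32, -1.52 and -1.64. The part of immune cells in the difference was not tested. The sums of the same list were 7887 and 4318 CPM in the remaining cells, 6229 and 3331 CPM in the mitotic cells and 6029.6 and 3122 CPM in the Lgr5-positive cells, so the difference was present in each kind of cell. Ly6a (Sca-1) stood at 69.4 and 15.6 CPM in the S-phase cells (-2.14, -2.66 to -1.68) and at 370 and 60.0 CPM in the remaining cells.

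The genes furthest below WT by the fixed rule were Retnlb, Pla2g4c, AA467197, Ifitm3, Gsdmc4, Gsdmc2, H2-Aa and Reg4. Retnlb, a goblet cell antimicrobial gene, stood at 394 and 14.1 CPM (-4.78, -5.30 to -4.34), with UMIs in 65 of 272 and 11 of 234 cells. Of its WT UMIs, 63.7% lay in 10 cells. Ifitm3, at 934 and 217 CPM, had a log2 ratio of -2.10 (-2.23 to -1.98) and was found in 88.2% and 56.0% of cells. Its ratio was -2.32 in the mitotic, -1.76 in the Lgr5-positive and -1.97 in the remaining cells, so the difference was not particular to the S-phase cells. The gasdermin genes Gsdmc4 and Gsdmc2 stood at 273 and 69.6 CPM and at 185 and 51.1 CPM. They are closely related neighbours, and reads may be split between the copies. Ifitm3 and the gasdermins were spread over many cells, whereas Retnlb and Reg4 rested on few, with 75.8% of the WT Reg4 UMIs in 10 cells. Reg4 had a ratio of -1.61, of -0.68 without the Paneth-rich cells and of 2.07 in members chosen after thinning.

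Among the genes furthest above WT were Zg16, Gm14851, Lyz1, Hbb-bs, mt-Nd4l, Fcgbp and Defa21, most of them secretory. Zg16, a lectin of the goblet cell mucus, stood at 228 CPM in WT and 723 in Tipe0-/- (1.67, 1.54 to 1.79), and 10 cells held 94.1% and 80.8% of its UMIs. Of 12 goblet genes, 6 had a ratio above 0, 3 were at least 1.5-fold higher and none was lower, with a median of 0.18. Spink4, the most abundant, stood at 6047 and 5256 CPM (-0.20). Besides Zg16, those past 1.5-fold were Fcgbp at 302 and 714 CPM (1.24) and Tff3 at 2615 and 4797 CPM (0.88), while Muc2 stood at 734 and 1059.6 (0.53) and Clca1 at 324 and 224 (-0.53). For Fcgbp, 10 cells held 55.9% and 40.7% of the UMIs, and for Tff3 41.1% and 41.9%. Goblet-rich cells were not left out. The goblet list summed to 12087 and 14437 CPM in the S-phase and 10904 and 13592 in the mitotic cells. It summed to 27057 and 38679 in the remaining cells, but to 11825 and 9790 in the Lgr5-positive cells. The hemoglobin gene Hbb-bs stood at 51.6 and 128 CPM, of which a single cell held 149 of 165 UMIs in WT and 343 of 353 in Tipe0-/-. The mitochondrial gene mt-Nd4l stood at 177 and 420 CPM and was found in 82.7% and 97.4% of cells.

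Of 9 Paneth genes with enough UMIs, 2 were at least 1.5-fold higher in Tipe0-/- (Lyz1 and Defa22) and 4 lower, among them Defa24 and Ang4, with a median of -0.46, or 0.53 where 4 of 8 replication genes were asked for. Defa24, the most abundant, stood at 25359 and 16252 CPM (-0.64) and had a ratio of -0.81 without the 11 WT and 6 Tipe0-/- Paneth-rich cells, but of 0.62 where 4 of 8 replication genes were asked for. The Paneth-rich cells were chosen by the Paneth list, which holds Lyz1, Defa22, Defa24 and Ang4, so the values without these cells carry no test. For Lyz1 and 3 further genes above WT, the ratio changed sign once the Paneth-rich cells were left out. Lyz1, Paneth cell lysozyme, stood at 808 and 2146 CPM (1.41, 1.34 to 1.48), but at 129 and 120 CPM, or -0.10 (-0.33 to 0.12), without them. Likewise Defa22 went from 0.71 to -0.91, Defa21 from 0.99 to -0.35 and Gm14851 from 1.42 to -0.31. Defensin genes are near-identical copies, and the counting may split reads between them. Ang4, a Paneth antimicrobial gene, stood at 1805 and 672 CPM with these cells and at 622 and 81.1 without, lower in Tipe0-/- either way (-1.43 and -2.93). Of the goblet genes, Zg16 stood at 1.66, Fcgbp at 1.24, Tff3 at 0.88 and Clca1 at -0.50 without the Paneth-rich cells, and Muc2 went from 0.53 to 0.68 (0.60 to 0.77), past 1.5-fold.

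Among the other lists of differentiated cells, 2 of 9 enterocyte genes were at least 1.5-fold higher in the Tipe0-/- S-phase cells (Fabp2 and Enpep) and Anpep was lower. Fabp2, a fatty acid binding protein gene, stood at 194 and 333 CPM (0.78, 0.63 to 0.93), Enpep at 13.1 and 25.4 (0.94, 0.38 to 1.54) and Anpep at 25.02 and 14.5 (-0.78, -1.37 to -0.22, but 1.03 in members chosen after thinning). Of 8 tuft genes, 3 were lower, Ptpn6 and Trpm5 among them, and of 6 enteroendocrine genes Sct was higher and Gcg, Tac1 and Pyy were lower, with a median of -0.60, or 0.40 where 4 of 8 replication genes were asked for. The median of 12 absorptive fate regulators was 0.05. None of 8 p53 targets, of 21 genes of chromatin replication or of 8 epithelial genes was past 1.5-fold, with medians of 0.16, 0.11 and -0.06. With 4 of 8 replication genes asked for, the first 2 were -0.064 and -0.019. Of 7 histone genes with enough UMIs, Hist1h1e was lower (-0.91, -1.60 to -0.28).

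T cell transcripts summed to 213 CPM in WT and 85.5 in Tipe0-/- S-phase cells. Of the 12 listed, 4 had enough UMIs, namely Ptprc (50 and 9), Gzma (149 and 32), Gzmb (69 and 9) and Ccl5 (352 and 173). Most of these UMIs lay in WT, so that passing the filter was not independent of the direction. Ccl5, the most abundant of them, stood at 110 and 62.7 CPM, and at 28.0 and 6.22 CPM without the immune cells, so most of its UMIs lay in those cells. The B cell list stood at 38.5 and 4.35 CPM and the macrophage list at 14.1 and 5.80 CPM, where 3 and 4 of 8 macrophage markers were at 0. Without the immune cells, 93 of 102 named genes moved by less than their counting interval and 9 by more.

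**Figure D4:**
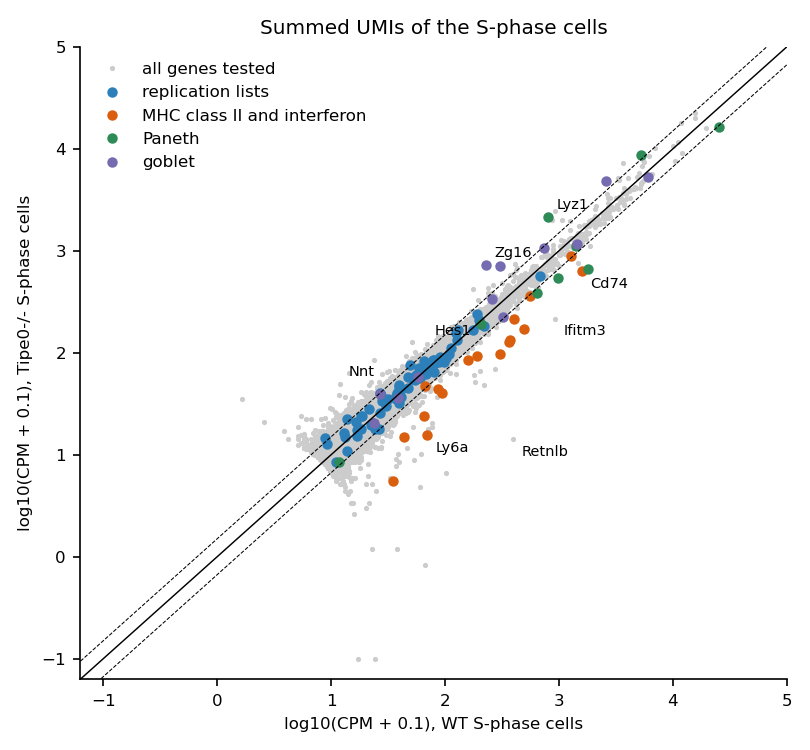
Level of each of 7963 genes in the S-phase cells, as log10(CPM + 0.1), in WT (horizontal) and Tipe0-/- (vertical). Grey points are all genes, colours mark 4 groups of lists, the solid line marks equal levels and the dashed lines 1.5-fold. Most of the replication genes lie between the dashed lines, and 15 of 17 genes of antigen presentation and interferon response lie under the lower dashed line.

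**Figure D5:**
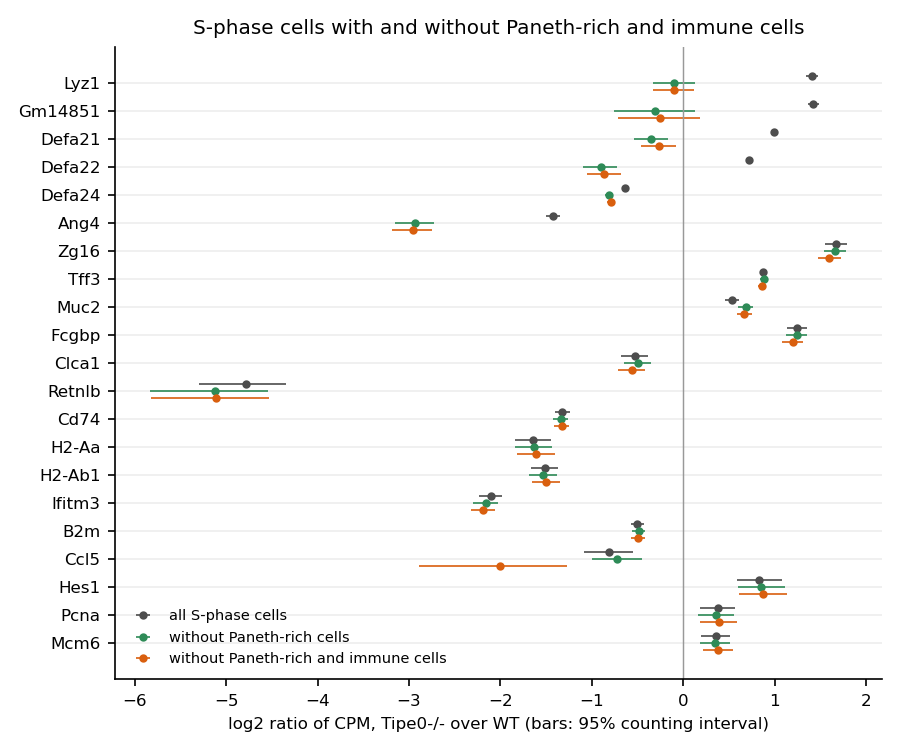
Log2 ratio of Tipe0-/- over WT with its 95% counting interval for 21 genes in all S-phase cells (grey), without the Paneth-rich cells (green) and without Paneth-rich and immune cells (orange). The points of Lyz1 and 3 further Paneth genes move below 0 once the Paneth-rich cells are left out, whereas Cd74, H2-Aa, Ifitm3, Hes1 and Pcna keep their values.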

How the data were processed

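The files hold raw UMI counts of 27998 genes in each cell that Cell Ranger kept, which the authors deposited as 1 matrix a genotype. Reads were aligned by the authors to mm10 with Cell Ranger, per the labels, and no normalization was applied to these counts. No cell was left out here, and the lowest depth was 3247 UMIs in WT and 3562 in Tipe0-/-. The labels speak of enteroids digested with collagenase and dispase, and the study's methods of isolated enterocytes digested with DNase I and Dispase. Which of these the libraries followed was not settled.

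Counts were summed over the S-phase, mitotic, Lgr5-positive and remaining cells of each library in Python 3.11.15 with numpy 2.4.6 and scipy 1.17.1. Log2 ratios were taken between CPM with 0.5 added to each sum. Intervals are exact 95% Poisson intervals for CPM, exact binomial (Clopper-Pearson) intervals for shares, binomial for the ratios of counts, and Newcombe intervals for differences of shares. They cover counting error only. Genes entered the comparison with other cells with at least 50 UMIs in all cells, and that between genotypes with at least 50 in the S-phase cells. Thinning drew 3000 UMIs from each cell without replacement. Scrublet, run on each library in Scanpy 1.11.5, marked 15 WT and 3 Tipe0-/- cells as doublets (0.333% of all), too few to have worked, so no cell was removed and the 5% of cells with the highest scores were left out as an alternative. Promoters were from RefSeq. The summing and ratio steps were tested on simulated data.

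The members and the gene lists were chosen with earlier results of these data known. Named were the 17 rule genes, Tnfaip8, Mki67, Pcna, Top2a, Ly6a and Nnt, and the 12 largest and 8 smallest ratios of S-phase over remaining cells. Named too were the 8 largest and 8 smallest ratios of Tipe0-/- over WT, each with at least 100 CPM on the higher side. From each list, the 4 most abundant genes and those with the highest and lowest ratio could be named. Genes named as past a fold in a list, without values, come from the count itself. Olfm4, Ascl2 and the 6 secretory fate genes were named after values were seen. Some genes that the rule would name are not reported here.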

Additional observations from a re-analysis of the deposited data

Results flagged for a closer look

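For 6 named genes the log2 ratio of Tipe0-/- over WT had opposite signs in the S-phase cells and in the remaining cells, with both counting intervals apart from 0. The difference between the kinds of cells was not tested, since each genotype had 1 library. For 4 Paneth genes the ratio was above 0 in the S-phase cells and below 0 in the remaining cells. It was 1.42 and -0.79 for Gm14851, 1.41 and -0.16 for Lyz1, 0.99 and -0.96 for Defa21, and 0.71 and -1.12 for Defa22. In the S-phase cells all 4 were below 0 without the 11 WT and 6 Tipe0-/- Paneth-rich cells, with intervals that included 0 for Lyz1 and Gm14851. For Anpep, a brush border peptidase gene with 80 and 40 UMIs in the S-phase cells, the values were -0.78 and 0.30, and for Ncl, nucleolin of ribosome assembly, -0.18 and 0.30.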

How the results depend on the processing

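No paired analysis was possible because each genotype had 1 library, and for the same reason no replicate could be left out. The difference of 3.67 points in the share of S-phase cells was above 0 under every alternative run. It was 1.84 and 5.47 after thinning with 3 or 2 of 8 replication genes, 6.62 with Lgr5-positive cells kept and, as a share of S-phase and mitotic cells, a measure added after seeing the data, 9.05. The genes at least 1.5-fold higher and lower in Tipe0-/- numbered 873 and 568 with 20 UMIs asked for and 95 and 74 with 200, as against 480 and 299, while 302 were higher with 4 of 8 replication genes and 184 lower in members chosen after thinning. Those higher than in all other cells numbered 247 with 20 UMIs, 86 with 200, 281 after thinning and 1456 against the remaining cells alone, where 863 were lower, as against 158 and 422.

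The median of the licensing list was 0.061 with 20 UMIs, -0.14 with 4 of 8 replication genes and -0.17 without the highest Scrublet scores. With 4 of 8 replication genes it was -0.28 for G2 and mitosis and 0.051 for stem cell genes, and below 0 for chromatin (-0.019), p53 (-0.064), PI3K/Akt (-0.0042) and Notch (-0.031), while it was 0.53 for Paneth and 0.40 for enteroendocrine genes and the ratio of Defa24 was 0.62. In members chosen after thinning, G2 and mitosis stood at 0.076, chromatin at -0.050, Zfp367 at -0.13, Pcna at -0.030 and Anpep at 1.03. In these members Gm14851 stood at -0.46, Lyz1 at -0.13, Reg4 at 2.07 and Defa22 at -0.56. The rule gene Ube2c stood at 0.052 in them, as against -0.78 in the S-phase cells as first chosen. As means over cells of log2 counts, which weigh each cell alike, the medians were 0.017 for the fork, -0.033 for G2 and mitosis, 0.036 for stem cell genes and -0.49 for antigen presentation, which was -1.22 with 200 UMIs. Gm14851 then stood at -0.0068, Lyz1 at -0.045, Hbb-bs at -0.0071, Defa21 at -0.22 and Defa22 at -0.55. Without the Paneth-rich cells, an alternative added after seeing the data, these were -0.31 for Gm14851, -0.10 for Lyz1, -0.35 for Defa21 and -0.91 for Defa22. The causes were not tested. Of 1122 values for 102 named genes under 11 alternatives, 963 moved by less than the counting interval, 141 by more in the same direction, and 18 changed sign.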
